A study of Mus musculus with 18 samples.

Results

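The ephrin, Slit-Robo and netrin guidance genes are 39 of the 54446 genes in the deposited count table. They were taken by symbol alone, as every measured gene of 9 families: 9 EphA receptors, 5 EphB receptors, 5 ephrin-A ligands, 3 ephrin-B ligands, 3 Slit ligands, 4 Robo receptors, the netrins Ntn1, Ntn4 and Ntn5, the 2 netrin-G genes, and the netrin receptors Dcc and Unc5a to Unc5d.

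The 18 libraries were made from 6 mice of the outbred CD-1 stock, with 3 neocortical libraries from each. Plasmids were placed in the ventricular wall by in utero electroporation at E14.5, in mid-gestation, and the mice were killed at postnatal day 7. GFP mice (n = 3) received the empty plasmid, huFOXP2 mice (n = 2) human FOXP2 cDNA, and the moFoxp2 mouse (n = 1) mouse Foxp2 cDNA, and Gfp cDNA marked the electroporated cells. FOXP2 is a forkhead transcription factor that layer 6 neurons normally express. Sagittal sections of 300 µm were microdissected into layers 2-3 (L2-3), layer 4 (L4) and layers 5-6 (L5-6), and the tissue of each layer was pooled for each mouse. The labels call the L4 cells GFP-positive and the L2-3 and L5-6 cells GFP-negative. They describe both GFP-negative layers as infragranular, although L2-3 lies above L4. No sort of cells is described, so each library may hold electroporated and other cells of its layer together, and the promoter of the plasmid is not named. The huFOXP2 and moFoxp2 mice were compared together with the GFP mice, as 3 FOXP2 mice, since 1 moFoxp2 mouse gives no spread of its own.

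Ephrins are ligands bound to the cell surface, by a lipid anchor in the ephrin-A class and by a membrane-spanning segment in the ephrin-B class, and they signal through Eph receptor tyrosine kinases on touching cells. Slits are large secreted proteins that repel axons carrying Robo receptors. Netrin-1 attracts axons through Dcc and repels them through the Unc5 receptors, and the netrin-G proteins are anchored at axon surfaces and do not bind Dcc. In the cortex these systems position migrating neurons, sort thalamic and callosal axons, and act again at synapses, and several members also act in blood vessels.

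The libraries held 10111149 to 23404528 counts assigned to genes. The mice are separate animals, so the spread below is between mice. Foxp2 reads, which do not separate the introduced cDNA from the resident gene, were at 1.77 to 6.54 CPM (reads of a gene as a share of its library, scaled to a common total) in L2-3 of the GFP mice and 20.2 to 52.3 CPM in L2-3 of the FOXP2 mice. They were at 5.39 to 8.75 against 33.3 to 64.9 CPM in L4 and at 52.5 to 68.6 against 39.6 to 77.8 CPM in L5-6. Summed layer 6 and subplate markers separated L5-6 (691 to 1292 CPM) from L2-3 (233 to 296 CPM) and L4 (290 to 335 CPM). Rorb, a layer 4 marker, was at 154 to 272 CPM in L4 but reached 207 CPM in L2-3 of a GFP mouse. The layer 4 markers disagreed: of 7 tested, 4 were higher in L4 than in L2-3 and 2 lower. In L5-6 against L4, 1 of the 7 was higher and 2 were lower. Layer 2-3 neuron markers did not separate L2-3 from L4, with sums of 1373 to 1956 CPM and 1569 to 1983 CPM. Of 11 such markers tested, 1 was higher in L4 than in L2-3 and 0 were lower. L2-3 held 422 to 2244 CPM of meningeal fibroblast markers against at most 99.3 CPM elsewhere. Oligodendrocyte lineage markers summed to 4768 CPM in L5-6 of GFP mouse 1 and to at most 2576 CPM in the other libraries. The photoreceptor gene Crx was at 1.61 to 2.52 CPM in the 3 libraries of huFOXP2 mouse 1 and at most 0.056 CPM in the others. Results below are given without these 2 mice where that changes them.

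Per length of exon and averaged over the layers, Ephb6 was the most abundant member, with a level over the 18 libraries of 49.6 ± 12.4 CPM per kilobase of exon (SD). Ephb6 encodes an Eph receptor without kinase activity. Efnb3, an ephrin-B ligand of the midline, followed at 46.1 ± 6.96 and Epha4, which binds ligands of both ephrin classes, at 40.2 ± 11.9. Robo2 (22.1 ± 4.82) and Efna3 (18.2 ± 3.22) came next. Ephb6 and Efnb3 differed by less than the SD of either, as did Efnb3 and Epha4, and Robo2 and Efna3 differed by less than the SD of Robo2. The order was not the same in each layer. Ephb6 was above Efnb3 in L4 (63.2 ± 6.73 against 46.7 ± 3.53 CPM per kilobase, SD, n = 6), but below it in L2-3 (46.3 ± 7.76 against 51.4 ± 6.99) and in L5-6 (39.4 ± 7.52 against 40.2 ± 5.35). Exon length is the union of all annotated exons of a gene, 25433 bases for Slit2 against 6067 for Slit3. In counts Slit2 exceeded Slit3 (7369 against 2313), so places in the order depend on the length used. On this scale, Slit2 (0.99 ± 0.22), Epha2 (0.82 ± 0.35), Robo3 (0.82 ± 0.46) and Ntng1 (0.76 ± 0.43) were the lowest members that passed the filter on low counts in the layer comparisons. Epha1 and Ntn5 did not pass it, with 82 and 90 counts in all 18 libraries together. Epha1 ran from 0.0696 to 0.554 CPM. Ntn5 ran from 0 to 1.65 CPM, with the 6 L2-3 libraries between 0.171 and 1.65 CPM, and it passed the filter in the fits that compared FOXP2 with GFP in L2-3 and between layers.

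**Figure D1:**
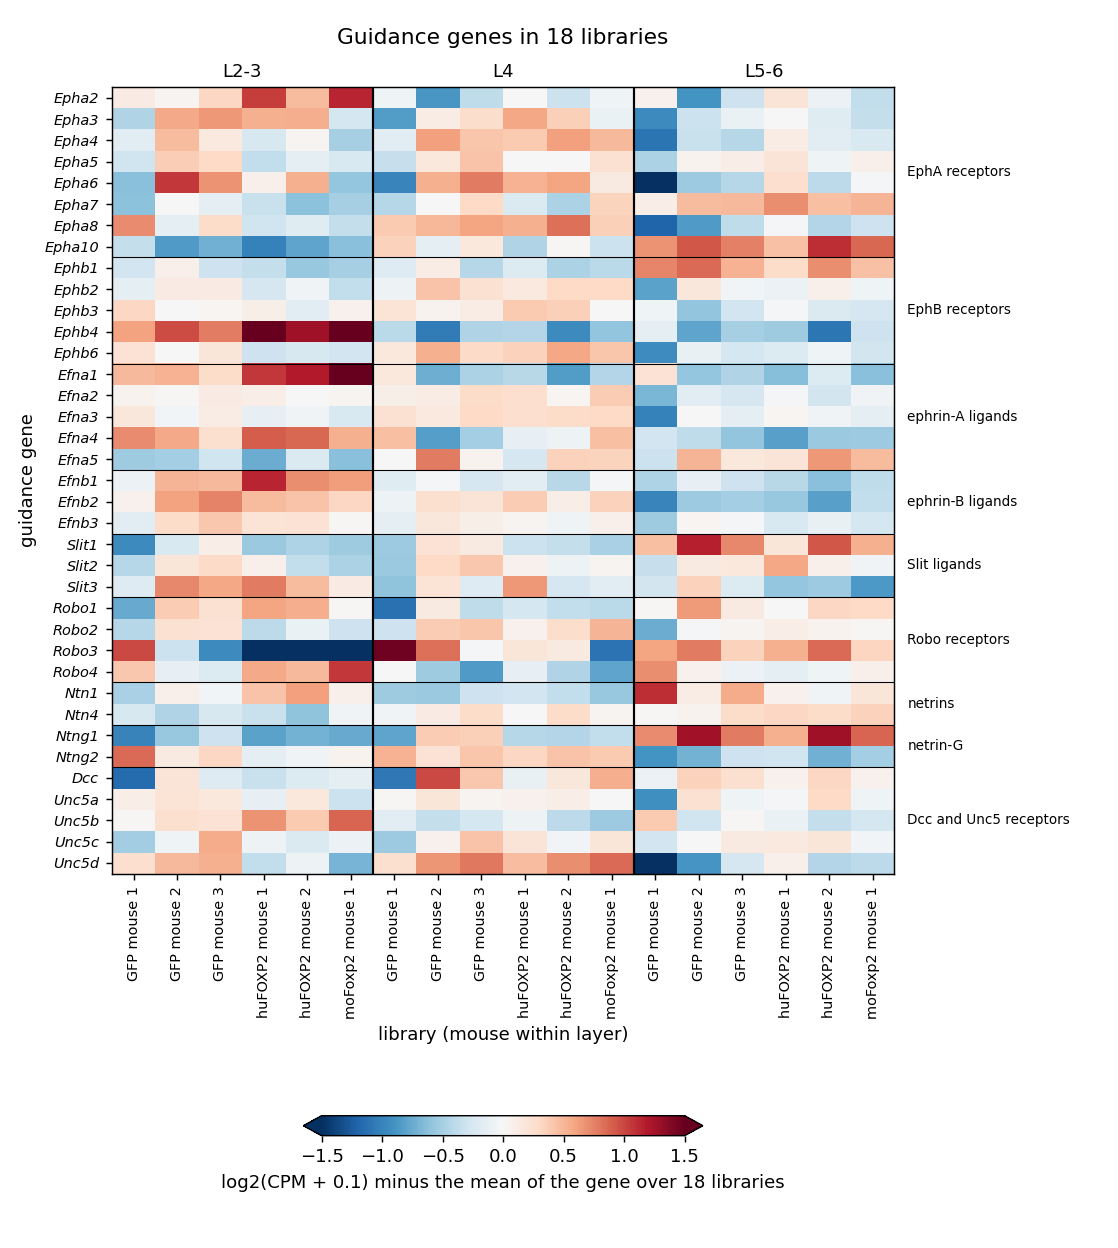
Level of 37 guidance genes in the 18 libraries, with libraries on the x axis grouped by layer and genes on the y axis grouped by family. Colour gives log2(CPM + 0.1) minus the mean of that gene over all libraries, and values beyond the scale take the end colours. The L5-6 columns are red for Epha10, Ephb1, Slit1 and Ntng1 and blue for Efnb2 and Ntng2, and the L2-3 columns are red for Ephb4 and Efna1.

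The layers differed in most of these genes. With mouse as a block and edgeR's quasi-likelihood test adjusted by Benjamini-Hochberg over all 15295 genes tested, 22 of the 37 members tested differed between L4 and L2-3, 11 higher in L4 and 11 lower. That is 59.5% of the members, where 36.5% of all genes passed (17.7% higher and 18.8% lower). Between L5-6 and L2-3, 23 of 37 differed (62.2%), 9 higher in L5-6 and 14 lower, where 37.9% of all genes passed (20% higher and 17.9% lower). Between L5-6 and L4, 22 of 37 differed (59.5%), 8 higher in L5-6 and 14 lower, where 35.1% of all genes passed (19.5% higher and 15.6% lower). The median log2 difference of the members was 0.14, -0.23 and -0.09 in these comparisons, against 0.04, 0.02 and 0.01 over all genes. Without regard to sign the median difference was 0.44, 0.55 and 0.42 for the members and 0.20 for all genes in each comparison. Since these are tissue pieces, fewer cells of a type and less RNA per cell cannot be told apart. Of the 37, 33 passed in at least 1 comparison (89.2%, where 63% of all genes did), and Epha5, Slit2, Unc5a and Unc5c passed in none.

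**Figure D2:**
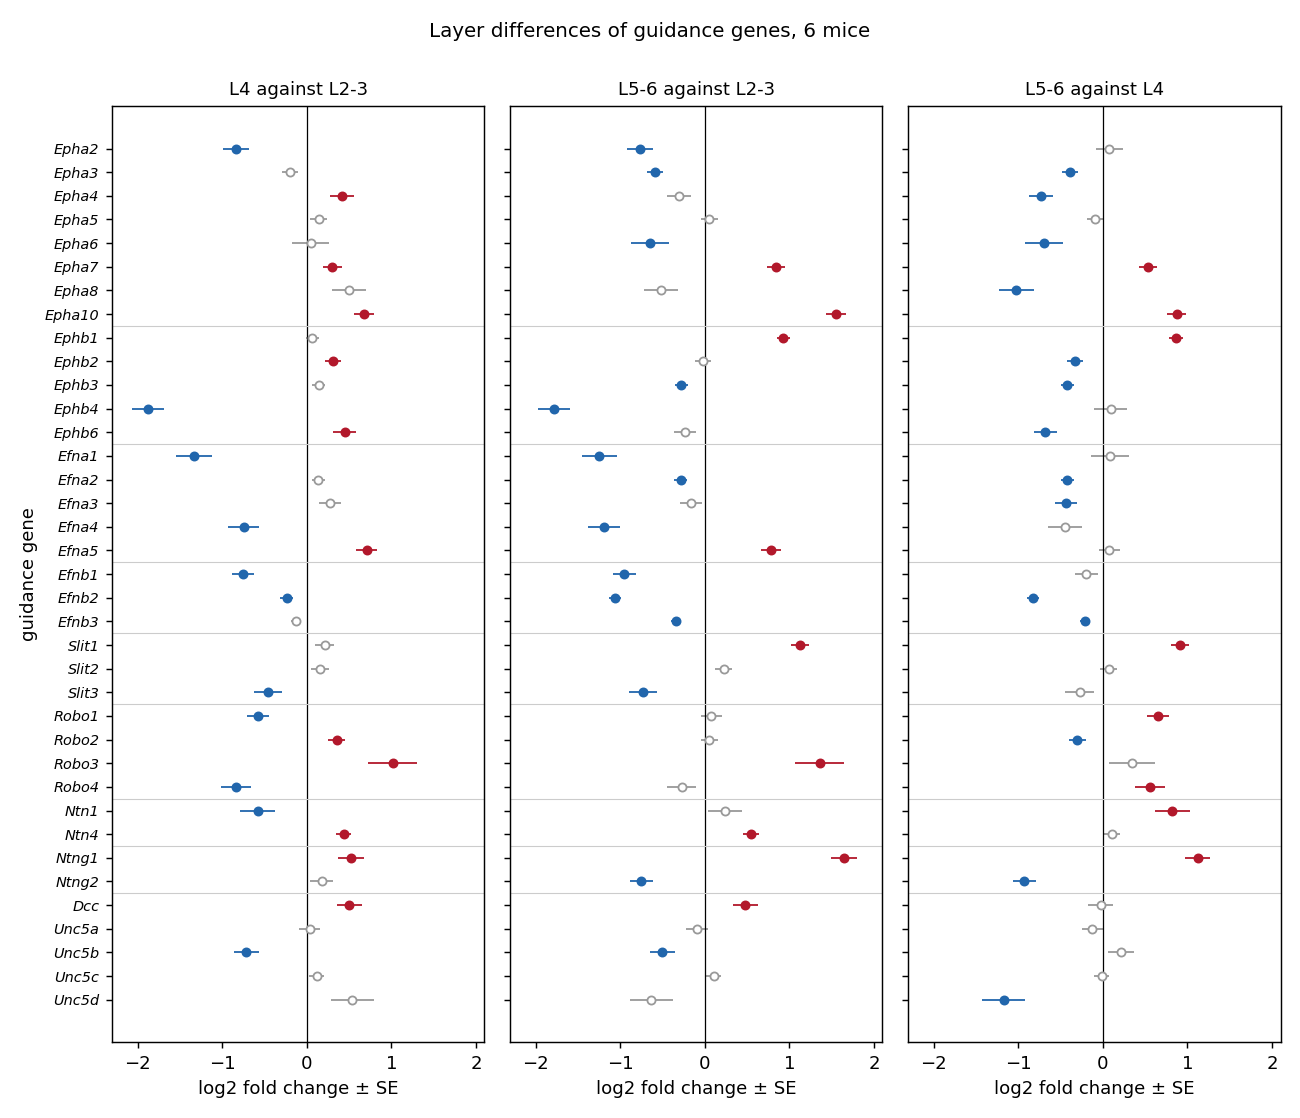
Log2 fold change with its SE between layers for 37 guidance genes, from 6 mice with mouse as a block, in 3 panels with genes on the y axis. Filled points passed an adjusted p of 0.05. Ephb4 and Efna1 lie farthest to the left in both panels against L2-3, and Ntng1 and Epha10 lie farthest to the right where L5-6 is compared with L2-3.

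Sorted by where they peaked, 5 members were higher in L5-6 than in both other layers (Epha7, Epha10, Ephb1, Slit1 and Ntng1), which is 13.5% of the 37 where 9.67% of all genes had this pattern, and 4 were higher in L4 than in both (Epha4, Ephb2, Ephb6 and Robo2), 10.8% where 4.22% of all genes were. Another 8 were higher in L2-3 than in both (Epha2, Ephb4, Efna1, Efna4, Efnb1, Efnb2, Slit3 and Unc5b), 21.6% where 9.85% of all genes were. At the other end, L5-6 was lowest for 7 members (Epha3, Epha6, Ephb3, Efna2, Efnb2, Efnb3 and Ntng2), L2-3 for 7 (Epha7, Epha10, Efna5, Robo3, Ntn4, Ntng1 and Dcc) and L4 for 3 (Robo1, Robo4 and Ntn1). These are 18.9%, 18.9% and 8.11% of the members, where 6.97%, 8.6% and 7.17% of all genes had these patterns. Epha8, Efna3 and Unc5d passed only as lower in L5-6 than in L4 (8.11%, where 4.61% of all genes did). Efnb2, Epha7, Epha10 and Ntng1 passed in all 3 comparisons (10.8%, where 4.86% of all genes did). In mm10, Efna1, Efna3 and Efna4 lie together on chromosome 3, with 32.8 and 10.4 kb between them. Efna1 and Efna4 were both highest in L2-3, and Efna3, which lies between them, was not.

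The promoters of Epha10, Ephb1, Ntng1, Efnb2 and Ephb4 are shown because these members had the smallest p in L5-6 against L2-3 among those with 1 start in the promoter table. Epha10, Ephb1 and Ntng1 were higher in L5-6, and Efnb2 and Ephb4 were lower. Each is the 250 bases before the start, from RefSeq on GRCm38.p6, with CG dinucleotides in capitals. The Epha10 and Ntng1 windows lie inside the gene span of GENCODE M21. The Epha10 window is chr4:124881535-124881784 on the plus strand, with 17 CG dinucleotides and 63.6% G and C.
Epha10: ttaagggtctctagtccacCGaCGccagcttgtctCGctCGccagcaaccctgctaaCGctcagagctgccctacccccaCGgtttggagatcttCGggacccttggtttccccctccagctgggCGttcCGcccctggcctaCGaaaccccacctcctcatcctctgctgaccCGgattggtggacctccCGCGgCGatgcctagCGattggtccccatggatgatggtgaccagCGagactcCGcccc
The Ephb1 window is chr9:102354694-102354943 on the minus strand, with 10 CG dinucleotides and 54% G and C.
Ephb1: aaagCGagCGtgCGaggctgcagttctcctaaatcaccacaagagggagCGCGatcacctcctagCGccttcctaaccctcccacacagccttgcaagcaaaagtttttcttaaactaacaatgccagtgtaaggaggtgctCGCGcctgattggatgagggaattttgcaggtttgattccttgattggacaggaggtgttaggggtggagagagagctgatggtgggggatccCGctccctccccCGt
The Ntng1 window is chr3:110143473-110143722 on the minus strand, with 25 CG dinucleotides and 62.4% G and C.
Ntng1: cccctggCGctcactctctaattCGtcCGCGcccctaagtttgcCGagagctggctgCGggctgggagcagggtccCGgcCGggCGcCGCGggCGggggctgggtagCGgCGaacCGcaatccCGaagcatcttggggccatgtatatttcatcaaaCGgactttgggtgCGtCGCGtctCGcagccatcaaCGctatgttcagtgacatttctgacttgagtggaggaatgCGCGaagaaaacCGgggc
The Efnb2 window is chr8:8661243-8661492 on the minus strand, with 27 CG dinucleotides and 72% G and C.
Efnb2: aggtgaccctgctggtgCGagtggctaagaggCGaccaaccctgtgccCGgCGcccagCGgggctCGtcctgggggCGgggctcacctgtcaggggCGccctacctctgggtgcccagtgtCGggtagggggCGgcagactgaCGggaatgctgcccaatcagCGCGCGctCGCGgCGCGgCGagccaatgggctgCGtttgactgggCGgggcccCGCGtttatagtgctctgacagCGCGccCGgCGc
The Ephb4 window is chr5:137349859-137350108 on the plus strand, with 12 CG dinucleotides and 64% G and C.
Ephb4: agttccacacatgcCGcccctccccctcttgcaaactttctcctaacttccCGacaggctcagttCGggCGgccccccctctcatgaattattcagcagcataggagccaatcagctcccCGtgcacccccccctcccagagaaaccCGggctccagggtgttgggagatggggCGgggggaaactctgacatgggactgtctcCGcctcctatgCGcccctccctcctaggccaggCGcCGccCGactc
The table gave 39 windows for 34 members, with a median of 17 CG dinucleotides (2 to 46), where all 32851 windows of that length had a median of 6 (0 to 56). A pair of forkhead motifs was searched on both strands. TGTTTAC was in 0 of the 39 windows and in 3.17% of all windows. TATTTAT was in 0 of 39 and in 5.17% of all. Both hold the letters TTTA in the same place but differ on each side of them, so that the 2 cannot match on the same run, and 8.09% of all windows held either or both. No match says only that these letters are not in this window.

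Below, levels over the 6 mice of a layer are given as lowest, median and highest CPM, and a difference is a log2 fold change ± SE from the edgeR fit with mouse as a block, with its Benjamini-Hochberg adjusted p. Positions are those of mm10 with the GENCODE M21 gene models.

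Of the 8 EphA receptors tested, 3 were higher in L4 than in L2-3 and 1 lower. In L5-6 against L2-3, 2 were higher and 3 lower, and against L4, 2 were higher and 4 lower. Epha10, a kinase-dead receptor (ENSMUSG00000028876.7, chr4:124880899-124917800, plus strand), was at 5.82, 6.97 and 9.26 CPM in L2-3, 8.63, 11.4 and 15 CPM in L4, and 16.1, 20.8 and 25.7 CPM in L5-6. The L5-6 libraries did not overlap with those of either other layer. L5-6 exceeded L2-3 by 1.55 ± 0.11 (adjusted p = 1.58e-07) and L4 by 0.87 ± 0.11 (adjusted p = 8.27e-05), and L4 exceeded L2-3 by 0.68 ± 0.12 (adjusted p = 0.00066), each in 6 of 6 mice. Epha7, a receptor that patterns cortical maps, ran the same way. It was at 31.5, 36.2 and 48.2 CPM in L2-3, 34.8, 45.1 and 61 CPM in L4, and 51.8, 67.8 and 78.8 CPM in L5-6, and L5-6 against L2-3 gave 0.84 ± 0.11 (adjusted p = 3.22e-05).

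Epha4, a receptor through which ephrins repel corticospinal axons (ENSMUSG00000026235.14, chr1:77367185-77515088, minus strand), peaked in L4. It was at 219.8, 297 and 429 CPM in L2-3, 278, 423 and 476 CPM in L4, and 145, 255 and 335 CPM in L5-6. The layers overlapped in level, but within every mouse L5-6 lay below L4, and the difference was -0.73 ± 0.14 (adjusted p = 0.00191). L4 exceeded L2-3 by 0.42 ± 0.14 (adjusted p = 0.0332), a call that was lost without GFP mouse 3, either huFOXP2 mouse or the moFoxp2 mouse. It was then 0.31 to 0.45, with adjusted p from 0.0564 to 0.128. Epha8 (ENSMUSG00000028661.8, chr4:136929419-136956816, minus strand), which lies 93.4 kb from Ephb2, was at 37.8, 43.4 and 79.3 CPM in L2-3, 62.3, 69.1 and 86.1 CPM in L4, and 21, 36.5 and 47.9 CPM in L5-6. All L5-6 libraries lay below all L4 libraries, and L5-6 against L4 was -1.02 ± 0.20 (adjusted p = 0.00195).

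Epha2, the receptor best known from epithelia and as the partner of ephrin-A1 (ENSMUSG00000006445.3, chr4:141301240-141329384, plus strand), was highest in L2-3. It was at 3.66, 4.72 and 8.02 CPM in L2-3, 1.90, 3.12 and 3.55 CPM in L4, and 1.87, 3.11 and 4.08 CPM in L5-6. L2-3 and L4 did not overlap, at -0.84 ± 0.15 for L4 against L2-3 (adjusted p = 0.001), and L5-6 against L2-3 was -0.77 ± 0.15 (adjusted p = 0.00101). Epha3 and Epha6 were lowest in L5-6, at -0.59 (adjusted p = 0.000242) and -0.65 (adjusted p = 0.0324) against L2-3. The Epha6 difference was lower in only 4 of 6 mice and was not called without GFP mouse 1, 2 or 3 or huFOXP2 mouse 2, when adjusted p was 0.0503 to 0.168. Epha5 was at 116, 132 and 193 CPM in L2-3, 118, 159 and 202 CPM in L4, and 108, 157 and 172 CPM in L5-6 and passed in no comparison.

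Among the 5 EphB receptors, Ephb4 had the largest layer differences of all 39 genes with a level of at least 1 CPM. Ephb4 (ENSMUSG00000029710.15, chr5:137350109-137378669, plus strand) is the ephrin-B2 receptor that marks veins. It was at 18.5, 26.8 and 45.3 CPM in L2-3, 5.86, 8.50 and 9.18 CPM in L4, and 5.71, 8.49 and 11.1 CPM in L5-6. Every L2-3 library lay above every library of L4 and L5-6. Against L2-3, L4 was at -1.88 ± 0.19 (adjusted p = 1.1e-05) and L5-6 at -1.78 ± 0.19 (adjusted p = 4.45e-06), in 6 of 6 mice. L5-6 against L4 was 0.10 ± 0.20 (adjusted p = 0.732) and did not pass.

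Ephb1, a receptor that turns retinal axons away from the midline (ENSMUSG00000032537.15, chr9:101922128-102354693, minus strand), was highest in L5-6. It was at 29.2, 34.3 and 45.6 CPM in L2-3, 31.1, 35.1 and 46.9 CPM in L4, and 52.2, 66.3 and 78.1 CPM in L5-6. The L5-6 libraries stood above all others, at 0.93 ± 0.08 against L2-3 (adjusted p = 5.05e-07) and 0.86 ± 0.08 against L4 (adjusted p = 4.11e-06). Ephb2 and Ephb6 were highest in L4, with L5-6 against L4 at -0.33 ± 0.10 (adjusted p = 0.0164) and -0.68 ± 0.13 (adjusted p = 0.00185). Their calls in L4 against L2-3, 0.31 and 0.45, were each lost without GFP mouse 2, the moFoxp2 mouse or either huFOXP2 mouse, with adjusted p of 0.0566 to 0.0933. Ephb3 was lowest in L5-6, at -0.42 ± 0.08 against L4 (adjusted p = 0.00136).

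The ephrin-A ligands split between layers. Efna1, a ligand of endothelial cells (ENSMUSG00000027954.9, chr3:89271733-89281142, minus strand), was at 6.24, 9.15 and 15 CPM in L2-3, 2.84, 3.72 and 5.76 CPM in L4, and 3.26, 3.57 and 6.01 CPM in L5-6. All L2-3 libraries exceeded all libraries of L4 and L5-6. The difference was -1.34 ± 0.22 for L4 against L2-3 (adjusted p = 0.000407) and -1.25 ± 0.21 for L5-6 against L2-3 (adjusted p = 0.000312). Efna4 (ENSMUSG00000028040.7, chr3:89333390-89338028, minus strand) was low, at 2.36, 3.15 and 3.80 CPM in L2-3, 1.07, 1.84 and 2.75 CPM in L4, and 1.09, 1.32 and 1.61 CPM in L5-6. L5-6 lay wholly below L2-3, at -1.19 ± 0.19 (adjusted p = 0.000158), while L4 overlapped with L2-3 at -0.75 ± 0.18 (adjusted p = 0.00623).

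Efna5, the ligand that maps thalamic axons in the somatosensory cortex (ENSMUSG00000048915.12, chr17:62604184-62881317, minus strand), ran the other way, at 21.8, 25.4 and 31.5 CPM in L2-3, 30.7, 42 and 63 CPM in L4, and 29.3, 46.2 and 57.4 CPM in L5-6. L2-3 was lowest in all 6 mice, though the ranges overlapped, with L4 at 0.71 ± 0.12 (adjusted p = 0.000726) and L5-6 at 0.78 ± 0.12 (adjusted p = 0.000171) against L2-3. Efna2 and Efna3 were lower in L5-6 than in L4, at -0.42 ± 0.08 (adjusted p = 0.00132) and -0.44 ± 0.13 (adjusted p = 0.02). The Efna3 call was lost without GFP mouse 3 (-0.44, adjusted p = 0.0609).

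All 3 ephrin-B ligands were lower in L5-6 than in L2-3. Efnb2, a ligand of arteries and of neural progenitors (ENSMUSG00000001300.16, chr8:8617434-8661242, minus strand), was at 104, 135 and 165 CPM in L2-3, 93.6, 115 and 129 CPM in L4, and 49.5, 67 and 76.7 CPM in L5-6. The L5-6 libraries lay below all others. L5-6 against L2-3 was -1.06 ± 0.07 (adjusted p = 1.02e-07) and L5-6 against L4 -0.82 ± 0.07 (adjusted p = 4.42e-06). L4 against L2-3 was -0.24 ± 0.07 (adjusted p = 0.0218), lower in 5 of 6 mice, and not called without GFP mouse 2, GFP mouse 3 or huFOXP2 mouse 2 (adjusted p 0.0794 to 0.104). Efnb1, an X-linked ligand (ENSMUSG00000031217.8, chrX:99136130-99148991, plus strand), was at 18.6, 29.2 and 43.5 CPM in L2-3, 14.7, 17.5 and 19.5 CPM in L4, and 12.7, 14.9 and 18.1 CPM in L5-6, and L2-3 exceeded L5-6 without overlap. L4 against L2-3 was -0.75 ± 0.13 (adjusted p = 0.000735) and L5-6 against L2-3 -0.95 ± 0.13 (adjusted p = 6.09e-05). Efnb3 differed less, at -0.34 ± 0.06 for L5-6 against L2-3 (adjusted p = 0.000383).

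Of the Slit ligands, Slit1, the most abundant of the 3 per length of exon (ENSMUSG00000025020.11, chr19:41600257-41743665, minus strand), was at 20.3, 27.9 and 42.4 CPM in L2-3, 27, 31.2 and 45.9 CPM in L4, and 44.7, 61.1 and 88.7 CPM in L5-6. L5-6 was higher in 6 of 6 mice, by 1.12 ± 0.11 against L2-3 (adjusted p = 2.02e-06) and 0.91 ± 0.11 against L4 (adjusted p = 4.24e-05), and it was apart from L2-3 but overlapped with L4. Slit3 was highest in L2-3, with L5-6 at -0.73 ± 0.17 (adjusted p = 0.00317) and L4 at -0.46 ± 0.17 (adjusted p = 0.044) against it. The L4 call was lost without GFP mouse 2, GFP mouse 3, the moFoxp2 mouse or huFOXP2 mouse 2 (adjusted p 0.074 to 0.144). Slit2 was at 17.8, 22.6 and 30.1 CPM in L2-3, 16.8, 25.7 and 32.6 CPM in L4, and 19.4, 26.5 and 37 CPM in L5-6 and passed in no comparison.

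The 4 Robo receptors differed among themselves. Robo2, the most abundant of them per length, was at 273, 319 and 429.6 CPM in L2-3, 297, 460.4 and 522 CPM in L4, and 219, 374 and 393 CPM in L5-6. It was highest in L4, at 0.35 ± 0.10 against L2-3 (adjusted p = 0.0141), and L5-6 against L4 was -0.30 ± 0.10 (adjusted p = 0.0311). The first call was lost without the moFoxp2 mouse (0.25, adjusted p = 0.0752), and the second without any of the 5 mice other than huFOXP2 mouse 1 (adjusted p 0.054 to 0.0856). Robo1 was lowest in L4, at -0.57 ± 0.13 against L2-3 (adjusted p = 0.00375) and with L5-6 above L4 by 0.65 ± 0.13 (adjusted p = 0.00203).

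Robo3 and Robo4 lie 553 bases apart on chromosome 9, on opposite strands. Robo3, a receptor known from commissural axons (ENSMUSG00000032128.15, chr9:37415669-37433246, minus strand), was at 1.53, 1.96 and 9.37 CPM in L2-3, 2.11, 5.21 and 13 CPM in L4, and 5.88, 6.95 and 8.52 CPM in L5-6. The L2-3 values spread widely, from the FOXP2 mice at the bottom to GFP mouse 1 at the top. L4 against L2-3 was 1.02 ± 0.29 (adjusted p = 0.0142), not called without huFOXP2 mouse 1 (0.87, adjusted p = 0.058). L5-6 against L2-3 was 1.36 ± 0.29 (adjusted p = 0.00189), higher in 5 of 6 mice. Robo4, the endothelial Robo (ENSMUSG00000032125.20, chr9:37401897-37415115, plus strand), was at 10.002, 15.7 and 24.2 CPM in L2-3, 6.34, 8.15 and 11.5 CPM in L4, and 10.4, 11.5 and 18.8 CPM in L5-6. L4 against L2-3 was -0.83 ± 0.18 (adjusted p = 0.00256), lower in 6 of 6 mice. L5-6 exceeded L4 by 0.56 ± 0.18 (adjusted p = 0.0253) in 5 of 6 mice, and this call was lost without GFP mouse 2, GFP mouse 3 or huFOXP2 mouse 2 (adjusted p 0.0526 to 0.0833).

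Among the netrins, Ntn1 (ENSMUSG00000020902.12, chr11:68209364-68400823, minus strand) was lowest in L4, at 13.4, 19.7 and 28.6 CPM in L2-3, 12.6, 13.7 and 15.3 CPM in L4, and 18.1, 20.8 and 40.6 CPM in L5-6. All L5-6 libraries exceeded all L4 libraries, with a difference of 0.82 ± 0.21 (adjusted p = 0.00834). L4 against L2-3 was -0.58 ± 0.21 (adjusted p = 0.0414), and leaving out any mouse but GFP mouse 1 ended that call (adjusted p 0.0613 to 0.109). Ntn4, a netrin of basement membranes that layer 4 neurons also make, was lowest in L2-3, with L4 at 0.44 ± 0.09 (adjusted p = 0.00226) and L5-6 at 0.55 ± 0.09 (adjusted p = 0.000264) against it.

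The netrin-G genes ran in opposite directions in L5-6 against the other layers, while in L4 against L2-3 both values were above 0. Ntng1, whose protein binds Lrrc4c across the synapse (ENSMUSG00000059857.15, chr3:109780040-110144011, minus strand), was at 2.69, 3.26 and 4.40 CPM in L2-3, 3.13, 4.13 and 7.18 CPM in L4, and 7.95, 9.79 and 13.4 CPM in L5-6. The L5-6 libraries stood above all others, at 1.64 ± 0.15 against L2-3 (adjusted p = 1.24e-06) and 1.12 ± 0.15 against L4 (adjusted p = 0.000105). L4 against L2-3 was 0.52 ± 0.16 (adjusted p = 0.0186), lost without GFP mouse 2 (0.42, adjusted p = 0.0907) or the moFoxp2 mouse (0.54, adjusted p = 0.0511). Ntng2, the partner of Lrrc4 (ENSMUSG00000035513.19, chr2:29194541-29253005, minus strand), was at 54.8, 64.6 and 109 CPM in L2-3, 70.2, 80.2 and 87.2 CPM in L4, and 32.5, 39.8 and 49.2 CPM in L5-6. The L5-6 libraries lay below all others, at -0.75 ± 0.14 against L2-3 (adjusted p = 0.000688) and -0.93 ± 0.14 against L4 (adjusted p = 0.000281). Some of the Ntng2 signal is uncertain, because 14.0% of its exon length is shared with a gene on the same strand.

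Of the netrin receptors, Unc5d, a receptor of layer 4 neurons and of migrating upper-layer neurons (ENSMUSG00000063626.6, chr8:28646717-29219636, minus strand), differed most. It was at 44.8, 78.2 and 106 CPM in L2-3, 86.4, 117 and 131 CPM in L4, and 19.2, 54.6 and 76.8 CPM in L5-6. Every L4 library exceeded every L5-6 library, and L5-6 against L4 was -1.17 ± 0.25 (adjusted p = 0.00347). L5-6 against L2-3 was -0.63 ± 0.26 (adjusted p = 0.0665), which did not pass. Unc5b, a netrin receptor that also acts in vessels (ENSMUSG00000020099.8, chr10:60762593-60831581, minus strand), was highest in L2-3, at 19, 23.5 and 34.3 CPM in L2-3, 12.8, 15.1 and 17.8 CPM in L4, and 14.6, 16.5 and 24.7 CPM in L5-6. L2-3 and L4 were apart, at -0.72 ± 0.15 for L4 against L2-3 (adjusted p = 0.00226). L5-6 against L2-3 was -0.50 ± 0.15 (adjusted p = 0.0148), lower in 5 of 6 mice, and was lost without the moFoxp2 mouse or either huFOXP2 mouse (adjusted p 0.0509 to 0.065).

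Dcc was lowest in L2-3, with L4 at 0.51 ± 0.15 (adjusted p = 0.017) and L5-6 at 0.48 ± 0.15 (adjusted p = 0.0199) against it. The first call was lost without GFP mouse 2, GFP mouse 3 or the moFoxp2 mouse (adjusted p 0.0576 to 0.0664) and the second without GFP mouse 3 or huFOXP2 mouse 2 (adjusted p 0.0527 and 0.0615). Unc5a and Unc5c passed in no comparison, at -0.09 (adjusted p = 0.611) and 0.11 (adjusted p = 0.376) for L5-6 against L2-3. Over all families, 11 of the 22 calls in L4 against L2-3 held with each of the 6 mice left out in turn, as did 19 of 23 in L5-6 against L2-3 and 18 of 22 in L5-6 against L4. The other calls lost in this way were Epha7 in L4 against L2-3 (without any mouse but GFP mouse 2, adjusted p 0.054 to 0.208), Ephb3 in L5-6 against L2-3 (without GFP mouse 2, -0.22, adjusted p = 0.0621) and Epha6 in L5-6 against L4 (without GFP mouse 2, GFP mouse 3 or huFOXP2 mouse 2, adjusted p 0.0598 to 0.111).

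**Figure D3:**
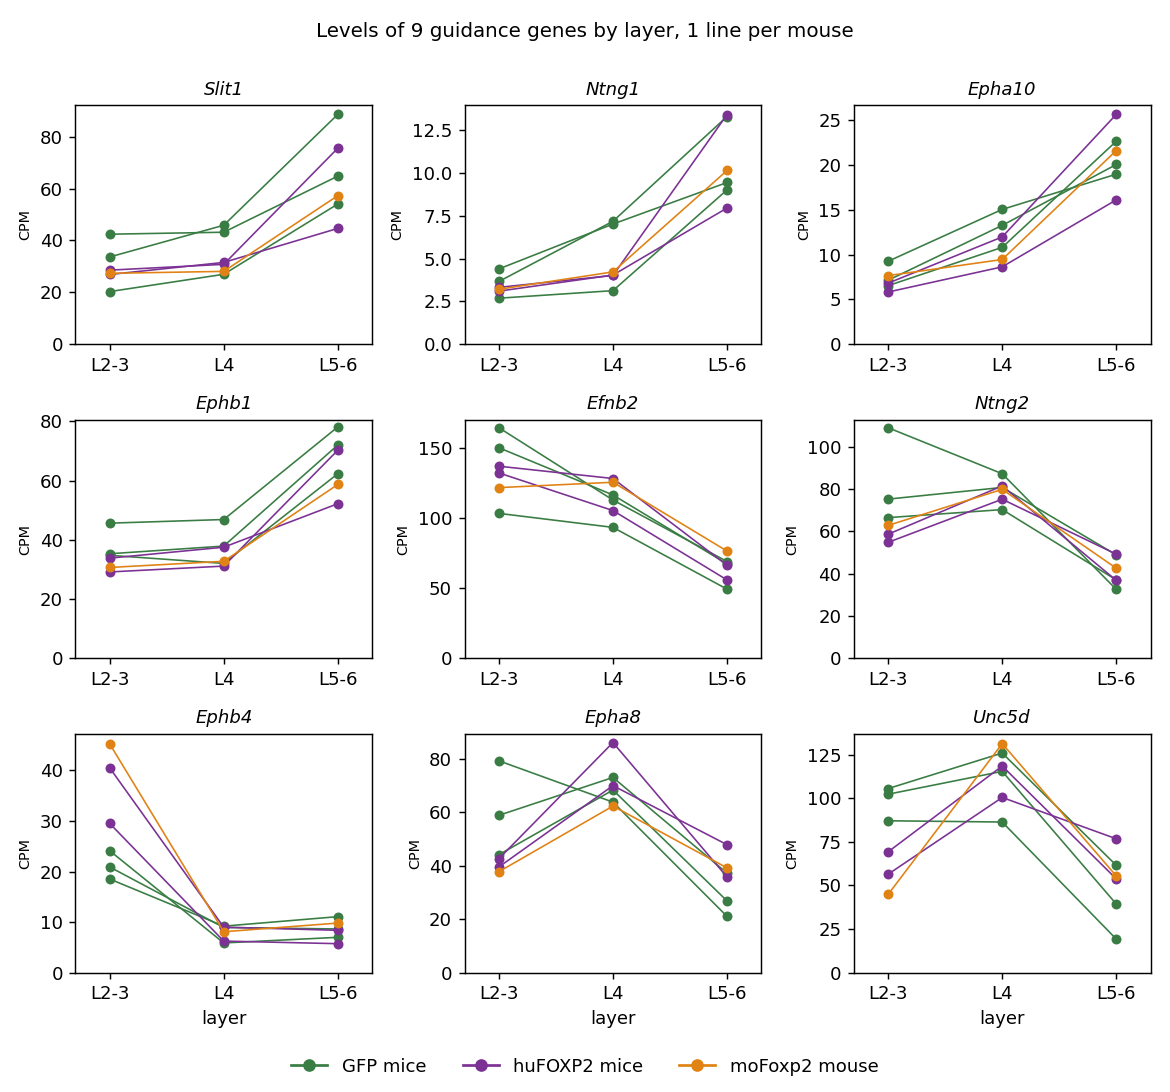
CPM of 9 guidance genes in L2-3, L4 and L5-6, with 1 line for each of 6 mice coloured by construct, on axes that start at 0. Slit1, Ntng1, Epha10 and Ephb1 climb to L5-6 in every mouse, Efnb2, Ntng2, Epha8 and Unc5d drop from L4 to L5-6 in every mouse, and Ephb4 drops from L2-3 to L4 in every mouse.

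Cell type markers moved with the members that were highest in L2-3. Summed endothelial markers were at 740 to 1312 CPM in L2-3, 373 to 572 CPM in L4 and 393 to 651 CPM in L5-6, and 10 of 10 were lower in L4 than in L2-3 and 9 of 10 lower in L5-6. Pericyte and smooth muscle markers were at 463 to 974, 195 to 266 and 236 to 412 CPM, with 7 of 7 and 5 of 7 lower. Meningeal fibroblast markers were at 422 to 2244, 28.2 to 99.3 and 35.1 to 54.0 CPM, with 10 of 10 lower in both. Cajal-Retzius markers were at 212 to 773, 129 to 265 and 64.0 to 161 CPM, with 5 of 5 lower in both. Microglial markers were lower in L4 in 9 of 10 and in L5-6 in 1 of 10 (3 higher), and astrocyte markers in 7 and 3 of 10 (1 higher in L5-6). No endothelial, pericyte or meningeal marker was at 0 in all libraries of a group. Ephb4, Efna1, Efnb2, Robo4 and Unc5b are genes of vessels as well as of neurons, and the part of these cells in the L2-3 levels of the members was not tested. With the members highest in L5-6, 12 of 13 layer 6 and subplate markers were higher in L5-6 than in L4, and 12 of 12 oligodendrocyte lineage markers were higher too, at 1462 to 4768 CPM against 579 to 841 CPM in L4. Layer 5 neuron markers were mixed, with 6 of 11 higher in L5-6 than in L4 and 2 lower. They summed to 312 to 465 CPM in L5-6 and 201 to 336 CPM in L4. Of the microglial markers 9 of 10 were higher in L5-6 than in L4 (357 to 831 against 198 to 410 CPM), and of the astrocyte markers 6 of 10 (1882 to 3901 against 1409 to 2168 CPM). With those lowest in L5-6, 10 of 11 layer 2-3 neuron markers were lower than in L4, at 569 to 1027 against 1569 to 1983 CPM. Their part in these results was not tested either.

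The constructs bear on the layer comparisons as well. In the 3 GFP mice alone, 5 members differed between L4 and L2-3 (Epha10, Ephb4, Efna5, Efnb2 and Robo4), all of them among the 22 above, where 6.06% of all genes passed in the same fit. In the 3 FOXP2 mice alone, 23 did, of which 18 were among the 22, where 43% of all genes passed. The counts for L5-6 against L2-3 were 23 in the GFP mice (22.7% of all genes) and 25 in the FOXP2 mice (41.4%), and for L5-6 against L4 they were 19 (22.7%) and 21 (20.2%). Among the calls of all 6 mice were 18 and 20 of these for L5-6 against L2-3, and 19 and 18 for L5-6 against L4. Whether the FOXP2 and GFP mice differed is tested below by interactions, for L4 and L5-6 against L2-3. It was not tested for L5-6 against L4.

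A list of 46 partner genes, including effectors of Eph, Robo and netrin receptors and their co-ligands, was tested in the same fits, and all 46 passed the filter. In L4 against L2-3, 14 were higher and 7 lower. Vav3, an exchange factor downstream of Eph receptors, was at -1.12 ± 0.19, Dscam, a netrin-binding receptor, at 0.55 ± 0.05, Dock1, which links Dcc to Rac, at -0.48 ± 0.15, Chn2, an Eph effector of the chimaerin family, at 0.46 ± 0.11 and Lrrc4, the netrin-G2 ligand, at 0.46 ± 0.09. In L5-6 against L2-3, 16 were higher and 9 lower. Islr2, a membrane protein of growing axons, was at 1.58 ± 0.28, Dscam at 0.96 ± 0.05, Flrt3, a Robo1 and Unc5 partner, at -0.92 ± 0.12, Chn2 at 0.80 ± 0.11 and Flrt2, the ligand of Unc5d, at 0.79 ± 0.12. In L5-6 against L4, 10 were higher and 10 lower, with Islr2 at 1.97 ± 0.28, Flrt2 at 0.92 ± 0.12, Flrt3 at -0.67 ± 0.12, Neo1, a Dcc relative, at -0.64 ± 0.09 and Tiam1, a Rac exchange factor, at -0.63 ± 0.10. The share of partners that passed was 21, 25 and 20 of 46, beside background shares of 36.5%, 37.9% and 35.1%. Flrt2 was thus higher in L5-6, where its receptor gene Unc5d was lower than in L4.

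In no layer did a member pass between the FOXP2 and GFP mice. In L2-3, 0 of 38 members passed by edgeR, where 0.0722% of all 15241 genes did. At an unadjusted p under 0.05 there were 15 of 38, where 15.8% of all genes passed, and DESeq2 called 5 (Unc5d, Ephb4, Efna1, Ephb6 and Robo3), where it called 4.95% of all genes. In L4, 0 of 37 passed (0.0275% of all genes), 1 (Robo3) at an unadjusted p under 0.05 (3.14% of all genes) and 0 by DESeq2 (0.22%). In L5-6, 0 of 37 passed (0.0196%), 5 at an unadjusted p under 0.05 (6.17%) and 0 by DESeq2 (0.365%). The median log2 difference without regard to sign was 0.29 for the members and 0.17 for all genes in L2-3, 0.09 and 0.10 in L4, and 0.22 and 0.15 in L5-6. With 3 mice a group, an exact permutation test of 1 gene cannot give a p below 0.1.

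**Figure D4:**
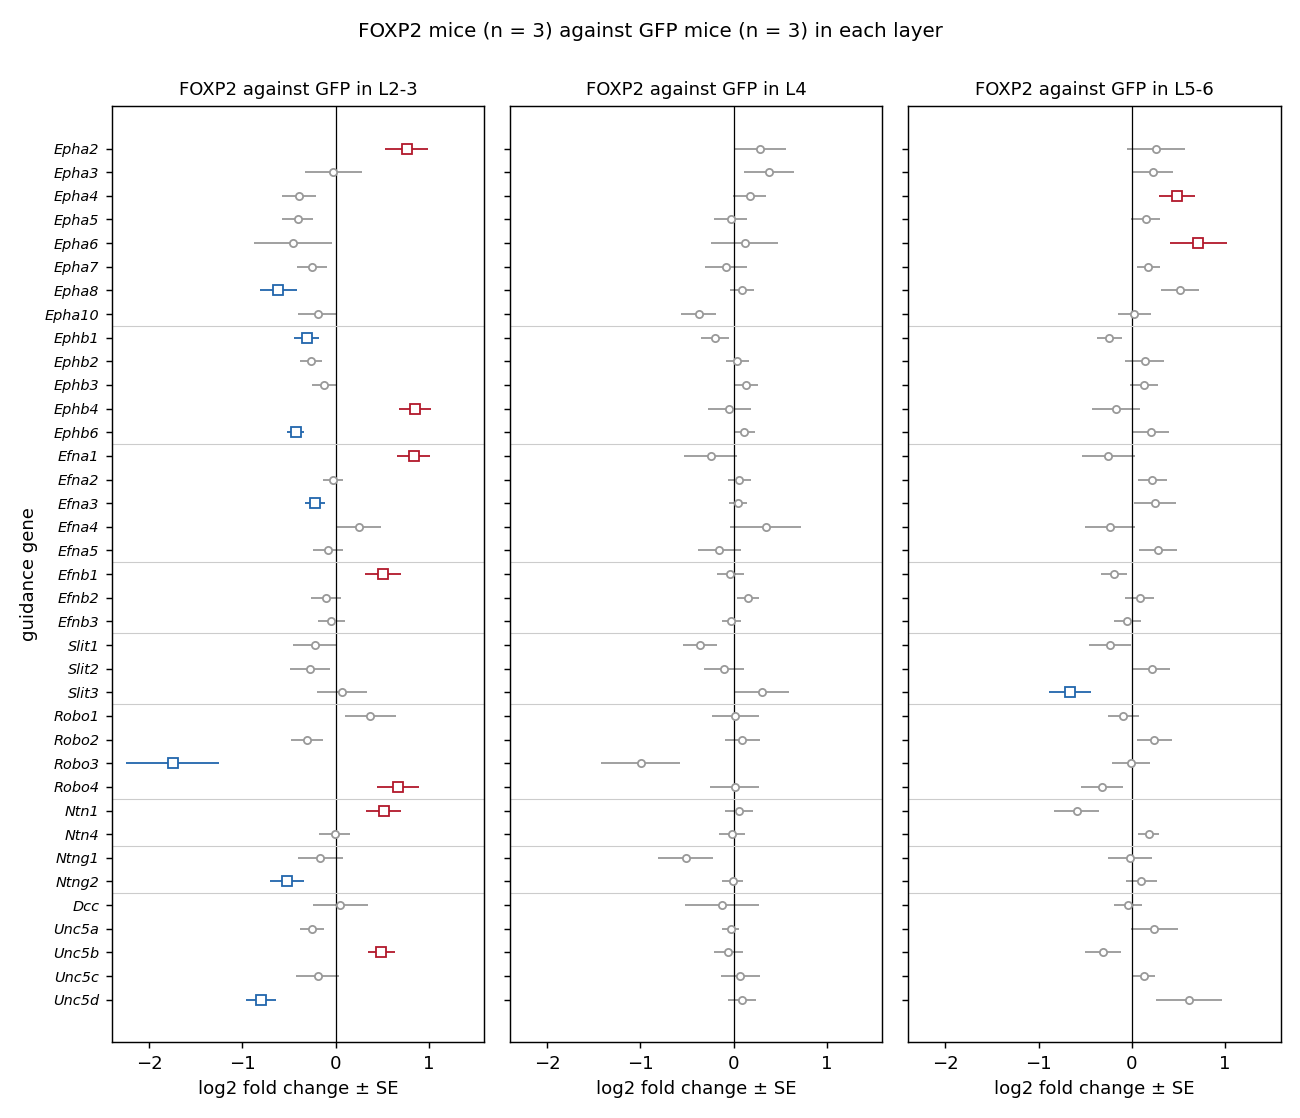
Log2 fold change with its SE between 3 FOXP2 and 3 GFP mice for the guidance genes tested in every layer. Each of the 3 panels is a layer, with genes on the y axis. Ntn5, tested here in L2-3 only, is not drawn. Coloured squares mark genes whose levels did not overlap between the groups. No guidance gene passed an adjusted p of 0.05. In L2-3 Robo3 lies farthest to the left among the members with a mean of at least 1 CPM and Ephb4 and Efna1 farthest to the right, and in L4 most members lie near 0.

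In L2-3 the levels of 14 of 38 members did not overlap between the groups (36.8%), where 20.6% of all genes did not. The FOXP2 mice were above all GFP mice for Epha2, Ephb4, Efna1, Efnb1, Robo4, Ntn1 and Unc5b, 7 of 38 members where 12.3% of all genes were, and below for Epha8, Ephb1, Ephb6, Efna3, Robo3, Ntng2 and Unc5d, 7 of 38 where 8.25% of all genes were. Values are given for GFP mice 1, 2 and 3 and then for huFOXP2 mice 1 and 2 and the moFoxp2 mouse. Unc5d was at 87.1, 102 and 106 CPM and 56.4, 69.3 and 44.8 CPM, a difference of -0.80 ± 0.16 with an edgeR adjusted p of 0.0946. All 3 FOXP2 mice were lower, the moFoxp2 mouse most. Ephb4 was at 18.5, 24.1 and 20.9 CPM and 40.5, 29.5 and 45.3 CPM, a difference of 0.86 ± 0.18 with an edgeR adjusted p of 0.0974. Efna1 was at 7.26, 7.44 and 6.24 CPM and 10.9, 11.9 and 15 CPM, a difference of 0.84 ± 0.18 with an edgeR adjusted p of 0.106. For both, every FOXP2 mouse was above every GFP mouse. Ephb6 was at 211, 183 and 206 CPM and 146, 153 and 148 CPM, a difference of -0.43 ± 0.09 with an edgeR adjusted p of 0.106. Robo3 was at 9.37, 3.72 and 2.36 CPM and 1.53, 1.57 and 1.53 CPM, a difference of -1.75 ± 0.49 with an edgeR adjusted p of 0.146. GFP mouse 1 held the highest Robo3 value by far, and the 3 FOXP2 mice lay close together.

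Markers of other cells differed in level alongside these L2-3 values. The GFP mice held 740 to 798 CPM of endothelial markers and the FOXP2 mice 891 to 1312 CPM. Pericyte and smooth muscle markers were at 463 to 606 against 766 to 974 CPM, and meningeal fibroblast markers at 422 to 1295 against 1492 to 2244 CPM. Cajal-Retzius markers were at 212 to 438 against 614 to 773 CPM. Layer 4 neuron markers ran the other way, at 165 to 287 against 101 to 107 CPM, as did layer 2-3 neuron markers, at 1798 to 1956 against 1373 to 1510 CPM. Interneuron markers were at 308 to 371 CPM in the GFP mice and 404 to 492 CPM in the FOXP2 mice, and thalamic neuron markers at 194 to 221 against 147 to 158 CPM. The L2-3 differences of Ephb4, Efna1, Robo4 and Unc5b had the direction of the vessel and meningeal sums, that of Efnb2 (-0.10 ± 0.16) had the opposite one, and that of Unc5d had the direction of the layer 4 sum. Their part in the L2-3 differences was not tested.

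Foxp2 reads were higher in the FOXP2 mice in both L2-3 and L4, as given above. In L4, whose cells the labels call GFP-positive, no member's levels separated the groups (0 of 37, where 7.67% of all genes did). The smallest p among the members belonged to Robo3, at 13, 8.33 and 4.62 CPM and 5.29, 5.12 and 2.11 CPM, a difference of -1.0 ± 0.42 with an edgeR adjusted p of 1. Slit1 was at 27, 45.9 and 43.2 CPM and 31.5, 30.8 and 28.1 CPM, a difference of -0.36 ± 0.18. The groups overlapped for both. Epha10 (-0.38 ± 0.19), Ntng1 (-0.52 ± 0.30) and Epha3 (0.38 ± 0.27) followed, each with an edgeR adjusted p of 1.

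In L5-6, 3 of 37 members did not overlap between the groups (8.11%, where 13.5% of all genes did not), Epha4 and Epha6 higher in the FOXP2 mice (6.7% of all genes) and Slit3 lower (6.85%). Slit3 was at 6.16, 9.50 and 6.43 CPM and 4.96, 5.05 and 4.06 CPM, a difference of -0.66 ± 0.22 with an edgeR adjusted p of 0.713. Epha4 was at 145, 245 and 229.8 CPM and 335, 276 and 265 CPM, a difference of 0.49 ± 0.19 with an edgeR adjusted p of 0.713. GFP mouse 1 was the lowest for Epha4 and huFOXP2 mouse 1 the highest. Epha8 (0.52 ± 0.20), Ntn1 (-0.59 ± 0.24) and Epha6 (0.72 ± 0.31) had the same edgeR adjusted p of 0.713.

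Whether the difference between FOXP2 and GFP mice itself differed between layers was tested as an interaction, with mouse as a block. Between L4 and L2-3, 0 of 38 members passed by edgeR, as did 0% of all genes. At an unadjusted p under 0.05 there were 13 of 38, where 17.7% of all genes passed, and DESeq2 called 2, Epha4 and Ephb4 (3.3% of all genes). The smallest p were those of Epha4 (0.58 ± 0.15, adjusted p = 0.0902), Efna1 (-1.06 ± 0.29, adjusted p = 0.0994), Ephb4 (-0.88 ± 0.24, adjusted p = 0.102), Robo2 (0.39 ± 0.13, adjusted p = 0.138) and Unc5d (0.93 ± 0.30, adjusted p = 0.14).

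Between L5-6 and L2-3, 14 of 38 members passed (36.8%), where 15.4% of all 15952 genes did. At an unadjusted p under 0.05 there were 22 of 38, where 32.7% of all genes passed, and DESeq2 called 15, where it called 15.9% of all genes. For 8 members the FOXP2 minus GFP difference was higher in L5-6 than in L2-3 (6.75% of all genes) and for 6 it was lower (8.66% of all genes). The calls depended on huFOXP2 mouse 1. Without that mouse 0 of the 14 were left and 1 of 16176 genes passed in all (0.00618%), while all 14 values kept their signs, among them those of Epha4 (0.80, adjusted p = 0.0625), Unc5d (1.34, adjusted p = 0.0697), Robo2 (0.48, adjusted p = 0.08) and Ephb4 (-0.996, adjusted p = 0.0868). Leaving out GFP mouse 1, 2 or 3 gave 10, 17 and 7 calls, and leaving out the moFoxp2 mouse or huFOXP2 mouse 2 gave 8 each. The shares of all genes in those fits are not given here, so these counts do not set the members apart from other genes. Without the block for mouse 0 members passed, as did 0 of all 15952 genes.

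The 8 members with a higher difference in L5-6 were the EphA receptors Epha4, Epha5, Epha6 and Epha8, Ephb6, Robo2, Robo3 and Unc5d. Each mouse's own L5-6 level over its L2-3 level is given as a log2 ratio of CPM + 0.1, in the order above. Epha4 gave -0.93, -0.81 and -0.57 in the GFP mice and 0.35, -0.21 and 0.27 in the FOXP2 mice, with an interaction of 0.91 ± 0.15 (adjusted p = 0.00936). L5-6 was far below L2-3 in every GFP mouse, and near it or above it in the FOXP2 mice. Unc5d gave -2.18, -1.38 and -0.78 and 0.44, -0.37 and 0.31, with an interaction of 1.52 ± 0.31 (adjusted p = 0.0125). Robo2 gave -0.31, -0.24 and -0.18 and 0.49, 0.15 and 0.33, with an interaction of 0.57 ± 0.13 (adjusted p = 0.0154). Robo2 was thus lower in L5-6 than in L2-3 in every GFP mouse and higher in every FOXP2 mouse. Epha5 gave -0.18, -0.32 and -0.20 and 0.57, 0.08 and 0.30, with an interaction of 0.55 ± 0.13 (adjusted p = 0.0162), and showed the same change of sign. Epha8 (1.12 ± 0.28, adjusted p = 0.0194), Epha6 (1.21 ± 0.32, adjusted p = 0.0237), Robo3 (1.56 ± 0.43, adjusted p = 0.0304) and Ephb6 (0.67 ± 0.19, adjusted p = 0.032) made up the rest.

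The 6 with a lower difference in L5-6 were Ephb4, Efna1, Efnb1, Robo4, Ntn1 and Unc5b. Ephb4 gave -0.74, -1.78 and -1.27 in the GFP mice and -2.26, -2.35 and -2.20 in the FOXP2 mice, with an interaction of -0.99 ± 0.24 (adjusted p = 0.0177). L5-6 was below L2-3 in every mouse, and farther below in the FOXP2 mice. Robo4 gave 0.29, 0.19 and 0.11 and -0.71, -0.55 and -0.99, with an interaction of -0.96 ± 0.23 (adjusted p = 0.0174). Its ratio was above 0 in every GFP mouse and below 0 in every FOXP2 mouse. Efna1 (-1.04 ± 0.28, adjusted p = 0.0267), Efnb1 (-0.70 ± 0.18, adjusted p = 0.0252), Unc5b (-0.77 ± 0.21, adjusted p = 0.0294) and Ntn1 (-1.06 ± 0.30, adjusted p = 0.0326) passed as well. The ratios of the 14 come from the same libraries as their calls and are given as a description.

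**Figure D5:**
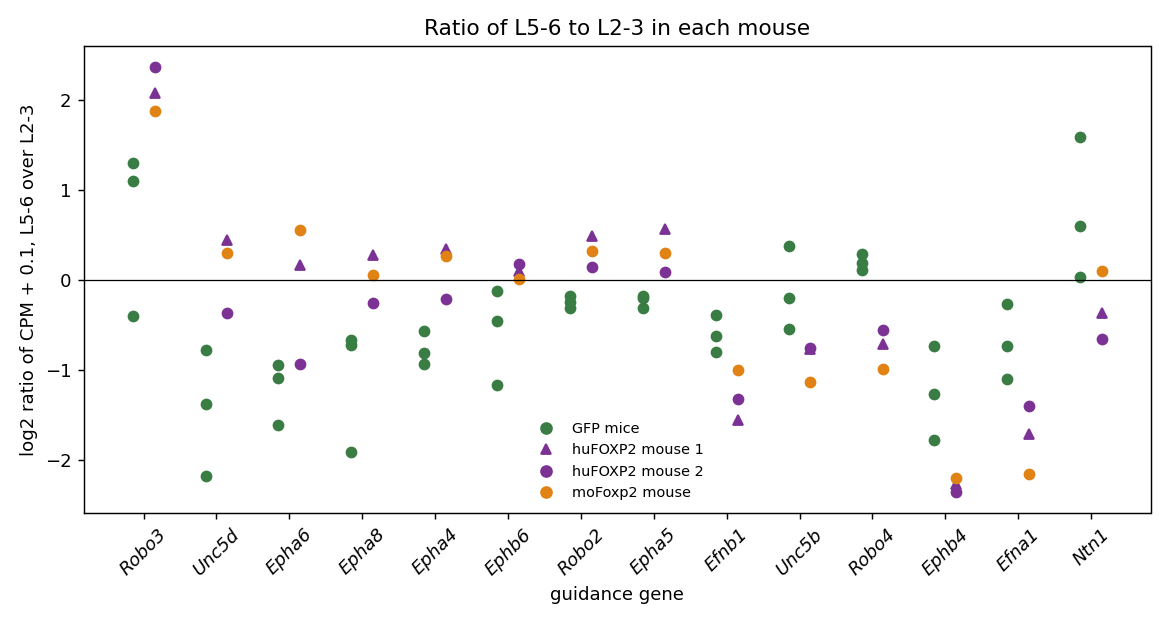
Log2 ratio of L5-6 over L2-3, from CPM + 0.1, for the 14 guidance genes that passed in the interaction, with 1 point for each mouse. Triangles mark huFOXP2 mouse 1. The FOXP2 points lie above the GFP points for the 8 genes from Robo3 to Epha5 and below them for Efnb1, Unc5b, Robo4, Ephb4 and Efna1, and the groups overlap for Ntn1.

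In the same interaction 8 of 11 layer 2-3 neuron markers and 3 of 7 layer 4 neuron markers were higher, and 7 of 10 astrocyte, 7 of 10 endothelial, 4 of 8 pericyte and smooth muscle, 4 of 12 oligodendrocyte lineage, 4 of 10 microglial, 3 of 8 striatal neuron and 1 of 10 meningeal fibroblast markers were lower. In L5-6 the layer 2-3 neuron markers summed to 569 to 792 CPM in the GFP mice and 670 to 1027 CPM in the FOXP2 mice, and the endothelial markers to 402 to 651 CPM in the GFP mice and 393 to 548 CPM in the FOXP2 mice. The part of these cells in the result was not tested. Of the 46 partners, 7 were higher and 5 lower, where 6.75% of all genes were higher and 8.66% lower. Islr2 was at -1.54 ± 0.31, Dock1 at -0.84 ± 0.20, Lrrc4c, the netrin-G1 ligand, at 0.81 ± 0.16, Chn1 at 0.54 ± 0.15 and Pak1 at 0.51 ± 0.12. Between FOXP2 and GFP mice, edgeR called 0 of 46 partners in L2-3, L4 and L5-6, with 12, 1 and 1 at an unadjusted p under 0.05, and DESeq2 called 1, 0 and 0. Of all genes, 15.8%, 3.14% and 6.17% had an unadjusted edgeR p under 0.05 there, and DESeq2 called 4.95%, 0.22% and 0.365%. In the interaction between L4 and L2-3, edgeR called 0 (11 at an unadjusted p under 0.05, as 17.7% of all genes) and DESeq2 6 (3.3% of all genes).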

How the data were processed

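RNA of 18 microdissected neocortical layer samples from 6 mice was sequenced from Illumina TruSeq libraries, per the labels' protocols. The deposited values are the authors' whole-number counts per gene, not normalized. STAR, HTSeq and the build mm10 are named in the submitters' processing notes, without versions, and the sources used here give neither the gene models nor the strand setting. Without known strand use, reads of overlapping genes on opposite strands may be shared, as for Epha1, Epha6, Epha10, Ephb1, Ephb4, Efna3, Efna4, Ntn5, Unc5a and Unc5c. Gene positions and exon lengths come from GENCODE M21, which held 53229 of the 54446 identifiers with their version and 54409 without it.

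Genes were kept by filterByExpr of edgeR 4.0.16 (R 4.3.3) with a minimum count of 10 and a minimum total of 15, scaled by TMM over all libraries of a fit, and tested with the quasi-likelihood F-test at an adjusted p of 0.05. CPM (counts scaled to a common library total) use 1 TMM scaling over the 18 libraries. Layers and interactions were fitted with mouse as a block, because libraries that share a construct and a replicate number deviated together (correlation 0.262 to 0.698 over 18 pairs, 15952 genes). FOXP2 and GFP mice were compared within a layer by 3 against 3. SE is the size of the log2 fold change over the root of the F statistic. Libraries of a group differed by more than counting noise (chi-square per degree of freedom 7.55 to 54.3 over 18 pairs), so none was a copy of another in its group. Libraries of different groups were not compared in this way. The fitting code was tested on simulated counts.

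Every member that passed is named. In each comparison the 10 of largest fold change with a mean of at least 1 CPM are given with values, or the 5 of smallest p where fewer than 3 passed. Partners are given as counts with at most 5 examples of largest fold change. Members, partner and marker lists were chosen with earlier results of these data known. Alternatives were DESeq2 1.42.0, RLE scaling, no filter, each mouse left out, no block, a block on replicate number, 1 fit over all libraries, and the GFP or FOXP2 mice alone. Leaving out GFP mouse 1 and huFOXP2 mouse 1 together was added after seeing the data. All count columns were mapped to samples by their label.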

Additional observations from a re-analysis of the deposited data

Results flagged for a closer look

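The difference between FOXP2 and GFP mice itself differed between L5-6 and L2-3 for 14 guidance genes, by edgeR's interaction test with mouse as a block. On the log2 scale it was higher in L5-6 by 1.56 for Robo3, 1.52 for Unc5d, 1.21 for Epha6, 1.12 for Epha8, 0.91 for Epha4, 0.67 for Ephb6, 0.57 for Robo2 and 0.55 for Epha5. It was lower in L5-6, at -0.70 for Efnb1, -0.77 for Unc5b, -0.96 for Robo4, -0.99 for Ephb4, -1.04 for Efna1 and -1.06 for Ntn1. With each of the 6 mice left out in turn, 0 of the 14 calls held throughout, since 0 were left without huFOXP2 mouse 1. Epha4, Epha5, Robo2 and Unc5d were lost only in that case.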

How the results depend on the processing

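Counts of guidance genes called are compared with those of the report. No filter on low counts gave 7 in L2-3 (0 in the report), 1 in L4 (0; Robo3) for FOXP2 against GFP, 8 in the interaction between L4 and L2-3 (0) and 22 between L5-6 and L2-3 (14). Shares of all genes in the fits without the filter are not given here, so these counts do not set the members apart from other genes. DESeq2 gave 5 in L2-3 (4.95% of all genes) and 2 in the first interaction (3.3% of all genes). The GFP mice alone gave 5 in L4 against L2-3 (22), where 6.06% of all genes passed. The interaction between L5-6 and L2-3 gave 0 without the replicate block, and 1 (Epha4) without GFP mouse 1 and huFOXP2 mouse 1, an alternative chosen after seeing the data. The cause was not tested for these. With each mouse left out in turn, counts ran from 14 to 26 in L4 against L2-3 (14 without the moFoxp2 mouse), 20 to 25 in L5-6 against L2-3, 18 to 22 in L5-6 against L4, 0 to 1 for FOXP2 against GFP in L2-3 (1 without GFP mouse 1, Epha5, named after its value was seen), and 0 in L4, L5-6 and the first interaction. For the second interaction they ran from 0 to 17. These ranges count members only and are given without the shares of all genes in the same fits. Epha3 in L4, not called, was 0.38. With mice left out it ran from -0.032 without GFP mouse 1 and huFOXP2 mouse 1 to 0.60 without GFP mouse 3, and it was highest, at 0.83, in the huFOXP2 and GFP mice numbered 1 and 2 with the replicate block. Over all alternatives, calls of single genes held in 847 cases, were lost in 178 and reversed in 0, and of values not called 18 passed.

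A replicate block on numbers 1 and 2 of the huFOXP2 and GFP mice gave 0 members in each layer, as did the same mice without it. Over all genes it gave 9, 69 and 45 calls against 7, 5 and 2. The numbers do not mark shared animals, and same-numbered libraries correlated at -0.289 to 0.210 over 6 pairs. Depth limits Epha1 and Ntn5, with 82 and 90 counts in all.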

Other observations

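The moFoxp2 mouse stood apart from both huFOXP2 mice for some members in L4, as values of 3 mice that were not tested. Robo3 was at 2.11 CPM in L4 of the moFoxp2 mouse, and at 5.29 and 5.12 CPM in the huFOXP2 mice. Epha7 was at 61.0 CPM in L4 of the moFoxp2 mouse, and at 41.8 and 34.8 CPM in the huFOXP2 mice. The 3 GFP mice ran from 4.62 to 13.0 CPM for Robo3 and from 36.1 to 59.7 CPM for Epha7 in L4. These genes were picked after their values were seen.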
